A study of Alligator mississippiensis with 4 samples.

Results

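The immediate-early transcription factors were taken as every row of the table of alligator dermis whose gene symbol belonged to the FOS, JUN, EGR or NR4A families, or was ATF3, IER2 or IER5. The rule covers 17 symbols, of which 14 had a row among 10466 rows, each with a single row. FOSL1, FOSL2 and EGR2 had no row under their symbols. Every row of the table reached at least 1.03 CPM (reads scaled by library size, before the TMM correction for composition) in its second-highest library, so that a gene below this level in all but 1 library stood outside it. All 14 genes averaged 1 CPM or more over the libraries, like 10236 rows in all, and these are the rows tested below.

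Dermis was taken from dorsal and from ventral overlapping scales of Alligator mississippiensis embryos at Es19, the placode stage, and at Es22, the bud stage. The study treated the skin with CMF solution to separate off the epidermis before extracting RNA. The effect of this treatment on transcript levels was not tested. Transcripts of epidermal markers, listed below, remained in the libraries. Their summed level was lowest for dorsal Es19 (41.2 CPM), followed by ventral Es19 (51.4 CPM), ventral Es22 (251 CPM) and dorsal Es22 (1013 CPM). How complete the separation was in each library was not tested. There was 1 library for each region and stage, so that no group had a replicate and no value below has an error between samples. The study prepared replicate samples, while each column of the table carries the label of a single library. No source used here gives the number of embryos in a library. The study's methods give no time between dissection and extraction. With 1 library per group, a difference in handling cannot be told apart from region or stage.

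Immediate-early genes are transcribed within minutes of a stimulus, such as a growth factor, stretch or stress, without new protein synthesis. FOS proteins pair with JUN proteins to form AP-1, a leucine zipper dimer that binds DNA. EGR proteins bind DNA through zinc fingers and NR4A proteins are orphan nuclear receptors. Many of their messages are short-lived, and in mammalian skin AP-1 and EGR1 act in keratinocytes and fibroblasts during wound repair and matrix remodelling.

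The table held 10722075 to 13220854 reads per library, and 1 read was worth 0.0679 to 0.103 CPM. Reads on COL1A1 and COL1A2, which code for type I collagen, the main matrix protein of dermis, made up 20.1% of the dorsal and 10.98% of the ventral library at Es19, against 33.4% and 30.96% at Es22. The whole reads behind each value were recovered from the CPM, and the 95% intervals given with ratios are exact binomial intervals on these reads. They cover counting error at most and leave out differences between samples. Reads without molecular identifiers are not independent molecules, so the intervals can be too narrow for counting error too. CPM is not corrected for transcript length, so levels are compared between libraries and not between genes.

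The highest of the 4 values lay in ventral Es22 dermis for 13 of the 14 genes, against 19.3% of all rows tested. For 11 genes both Es22 libraries lay above both Es19 libraries, against 27.8% of all rows. The exceptions to the second pattern were JUN, JUND and IER5. The comparisons of stages in ventral dermis and of regions at Es22 share the ventral Es22 library, so they are not independent of each other.

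**Figure D1:**
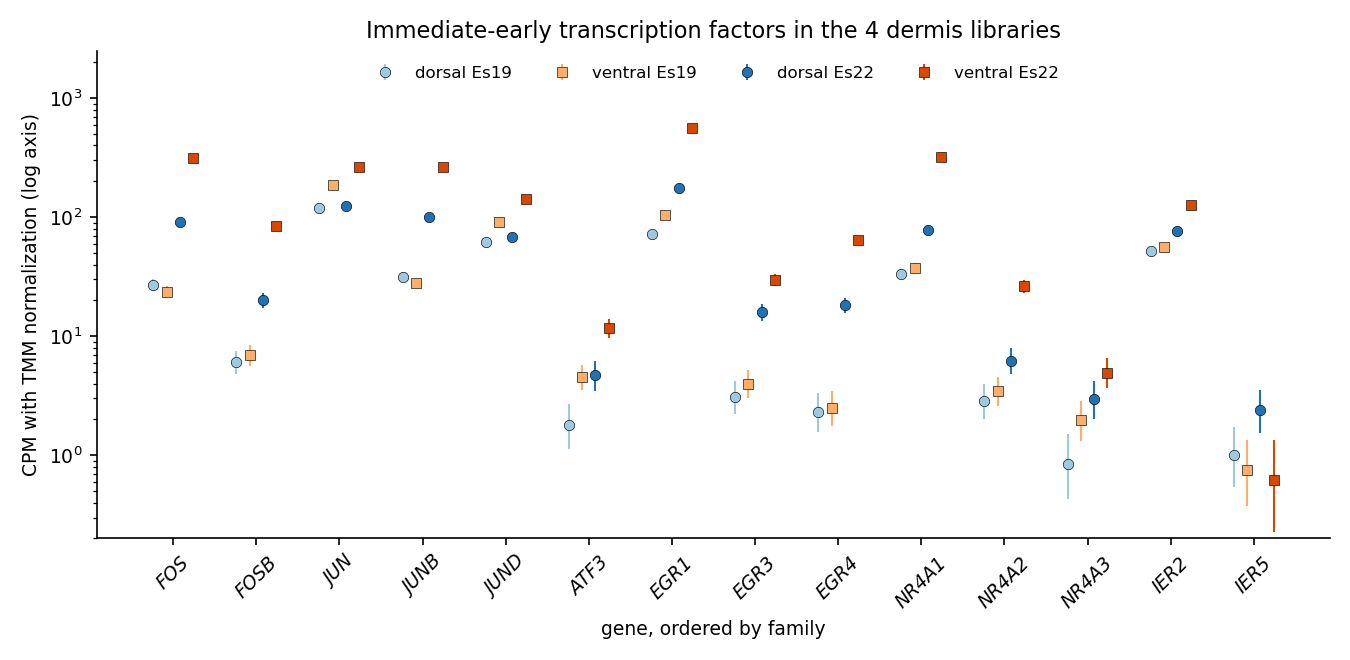
CPM with TMM normalization (log axis) of each immediate-early transcription factor in the 4 libraries, with 95% counting intervals where they are wider than the symbol. The ventral Es22 value is the highest of the 4 for 13 of 14 genes, and IER5 is the exception.

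The comparison between stages asked which of these factors differed between placode and bud dermis. At Es22, 9 of the 14 genes were at least 2-fold higher than at Es19 in both dorsal and ventral dermis, and 0 were at least 2-fold lower in both. Over all rows these shares were 3.26% and 0.537%, and with 14 genes the 0 cannot be set apart from the second share. The genes were FOS, FOSB, JUNB, ATF3, EGR1, EGR3, EGR4, NR4A1 and NR4A3. Folds for these counts were taken on log2(CPM + 1), a scale that understates the differences of genes with low CPM. In dorsal dermis alone the count was 9 against 8.15% of all rows, and in ventral dermis 11 against 5.74%. Of the cell type markers described below, 7 of 8 of epidermis, 7 of 9 of red blood cells and 7 of 13 of skeletal muscle were 2-fold higher in both regions. The other marker lists ran from 0 of 5 (cartilage and bone) to 4 of 10 (dermis).

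FOS, the founding member of its family, had 27.1 CPM dorsally and 23.7 CPM ventrally at Es19, against 90.6 and 315 CPM at Es22. Both Es22 values lay above both Es19 values, as they did for 27.8% of all rows. The ratio between stages was 3.35 in dorsal (95% interval 2.96 to 3.79) and 13.3 in ventral dermis (11.9 to 14.9). FOSB, its closest relative with a row, had 6.04 and 6.92 CPM at Es19, against 20.1 and 84.8 CPM at Es22. The 2 regions lay close together at Es19 and far apart at Es22 for both genes.

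JUNB, a JUN family member that can restrain JUN, followed the same order as FOS. Its level was 31.5 CPM dorsally and 27.8 CPM ventrally at Es19, against 101 and 265 CPM at Es22. Its ratio between stages was 3.20 in dorsal (2.85 to 3.60) and 9.51 in ventral dermis (8.57 to 10.6).

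JUN and JUND, the other partners of FOS in AP-1, had smaller ratios between stages. JUN was at 119 CPM in Es19 and 124 CPM in Es22 dorsal dermis, a ratio of 1.04 (0.964 to 1.12). In ventral dermis it was at 187 and 266 CPM, a ratio of 1.42 (1.35 to 1.5). JUND, which is often expressed at a steady level, had 62.4 and 67.6 CPM dorsally, and 90.7 and 141 CPM ventrally. The mean stage differences of JUN and JUND, 0.28 and 0.37 in log2, changed sign to -0.21 and -0.11 when libraries were scaled by their totals, a scaling that moved the median of all rows by -0.44.

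The EGR family had the gene with the largest ratio of the 14 in each region. EGR4 had 2.32 CPM dorsally and 2.51 CPM ventrally at Es19, from 30 and 37 reads, against 18.3 and 64.1 CPM at Es22. The ratio was 7.86 in dorsal (5.33 to 12) and 25.5 in ventral dermis (18.3 to 36.6). EGR3 had 3.10 and 4.003 CPM at Es19, against 15.9 and 29.9 CPM at Es22. EGR1, a zinc finger factor that responds to growth factor signals through SRF and ELK proteins, went from 72.4 to 177 CPM dorsally and from 104 to 558 CPM ventrally. For each of these 3 genes both Es22 values lay above both Es19 values, as they did for 27.8% of all rows.

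Among the orphan receptors, NR4A1 had 33.6 CPM dorsally and 37.6 CPM ventrally at Es19, against 78.0 and 319 CPM at Es22. The ratio was 2.32 in dorsal (2.06 to 2.62) and 8.48 in ventral dermis (7.75 to 9.30). NR4A2 was at 2.86, 3.46, 6.24 and 26.3 CPM in dorsal and ventral Es19 and then dorsal and ventral Es22 dermis. NR4A3, with only 11 to 48 reads per library, was at 0.851, 1.97, 2.98 and 4.95 CPM in that order. Its ratios between stages, 3.5 in dorsal (1.71 to 7.71) and 2.52 in ventral dermis (1.56 to 4.14), had overlapping intervals, unlike those of NR4A1 and NR4A2.

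ATF3, a leucine zipper factor of the stress response that also pairs with JUN, had 1.78 CPM dorsally and 4.55 CPM ventrally at Es19, against 4.71 and 11.7 CPM at Es22. The values for Es19 ventral and Es22 dorsal dermis stood at a ratio of 1.04 (0.701 to 1.52), within counting error. Its ratio between stages was 2.65 in dorsal (1.58 to 4.55) and 2.56 in ventral dermis (1.88 to 3.52). IER2 was at 51.8, 56.4, 76.3 and 128 CPM in the order given for NR4A2. IER5 had from 6 to 25 reads in a library, and its highest value, 2.402 CPM, was in Es22 dorsal dermis, while ventral Es22 dermis had the lowest, 0.619 CPM.

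**Figure D2:**
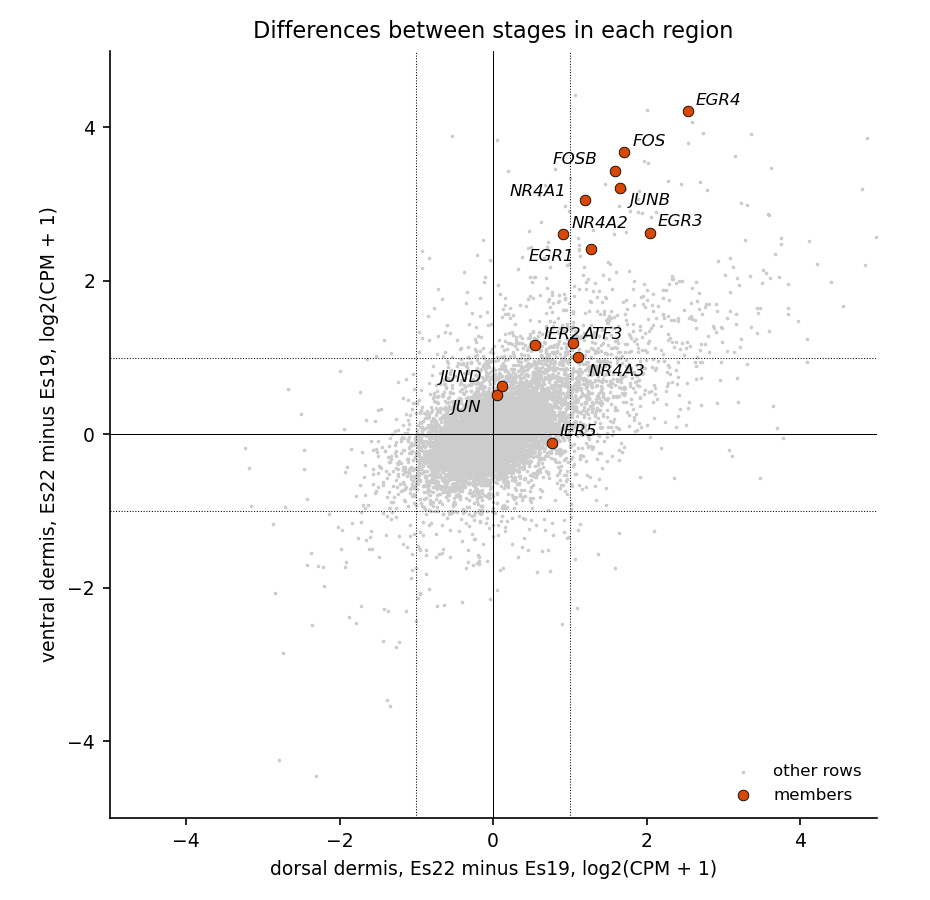
Differences in log2(CPM + 1) between Es22 and Es19 in dorsal (x axis) and ventral dermis (y axis) for all rows averaging 1 CPM or more (grey, of which 11 lie outside the frame) and the 14 immediate-early transcription factors (orange). Dotted lines mark 2-fold, and 9 factors lie past it in both regions, with EGR4 farthest out.

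limma was fitted to log2(CPM + 1) of all 10236 rows with region and stage as terms. Its 1 residual degree of freedom is the departure of one region from the other and stands in for replicate error. limma moderates the error of each gene toward a trend fitted over all rows. The standard errors and p-values below therefore rest on other genes as well as on this departure. EGR4, FOS, FOSB, JUNB, EGR3 and EGR1 rose between stages (6 of 14, against 2.66% of all rows called higher at Es22). The mean log2 difference of EGR4 was 3.37 (standard error 0.41, adjusted p = 0.0241 in limma), that of FOS 2.69 (0.43, adjusted p = 0.0375 in limma) and that of EGR1 1.85 (0.27, adjusted p = 0.0314 in limma). FOSB, JUNB and EGR3 had log2 differences of 2.51 (0.43), 2.43 (0.35) and 2.33 (0.26), and the largest adjusted p of the 6 in limma was 0.0442, for FOSB. NR4A1 had a log2 difference of 2.12 (0.41) and an adjusted p of 0.0564 in limma, and JUN one of 0.28 (0.17) and an adjusted p of 0.409. At an unadjusted p under 0.05 there were 11 genes, against 20.6% of all rows. The rise was not particular to these factors. Among the cell type markers described below, limma called 7 of 13 of skeletal muscle, 7 of 9 of red blood cells and 4 of 8 of epidermis higher at Es22. The other marker lists ran from 0 of 5 (cartilage and bone) to 2 of 5 (melanocyte).

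On the reads, the quasi-likelihood test of edgeR called 9 of the 14 genes by stage, the 6 above with NR4A1, NR4A2 and IER2, all higher at Es22, against 4.48% of all rows. All 6 limma calls were lost when region was left out as a term or without the intensity trend, and 1 was left with a pseudocount of 5 or after scaling by the upper quartile. With 3 libraries region cannot be kept as a term, so leaving out a library, which also gave 0 calls, cannot be told apart from dropping region. In these fits the log2 difference of FOS ran from 1.80 without ventral Es22 to 3.59 without dorsal Es22 dermis, and over all alternatives its adjusted p in limma or edgeR ran from 0.0132 to 0.224.

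The comparison between regions asked whether dorsal and ventral dermis differed in these factors. At Es19 the 2 regions were close for most of the genes. The median log2 difference, ventral minus dorsal, was 0.19 over the 14 genes and 0.001 over all rows. On log2(CPM + 1), 0 of the 14 reached a 2-fold excess in ventral dermis, against 2.84% of all rows. With 14 genes this 0 cannot be set apart from that share, and on CPM itself ATF3 and NR4A3 were past 2-fold. The ratio of ventral to dorsal CPM at Es19 was 0.874 for FOS (0.752 to 1.02), 0.883 for JUNB (0.768 to 1.02), 1.12 for NR4A1 (0.985 to 1.27) and 1.08 for EGR4 (0.650 to 1.81). All of these intervals contained 1 with the TMM scaling, which they take as fixed. Scaling by totals moved the median of all rows at Es19 to 0.192. JUN, JUND, EGR1, ATF3 and NR4A3 were the genes whose interval lay above 1 at Es19. The share of all rows with such an interval was not counted, and the intervals leave out differences between samples. JUN had a ratio of 1.57 (1.48 to 1.68), JUND of 1.45 (1.33 to 1.59) and EGR1 of 1.43 (1.32 to 1.55). ATF3 had the largest, 2.55 (1.57 to 4.30), from 67 and 23 reads, and NR4A3 one of 2.31 (1.12 to 5.13), from 29 and 11 reads.

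At Es22 the regions lay far apart. Of the 14 genes, 10 reached a 2-fold excess in ventral dermis on that scale, against 1.94% of all rows, and the median log2 difference was 1.27 over the 14 genes and 0.005 over all rows. The ratio of ventral to dorsal CPM was 4.22 for FOSB (3.62 to 4.94), 4.21 for NR4A2 (3.20 to 5.62), 4.09 for NR4A1 (3.78 to 4.42) and 3.48 for FOS (3.23 to 3.75). JUNB, EGR1 and EGR4 had ratios of 2.62, 3.14 and 3.51, and JUN and JUND of 2.15 (2.01 to 2.31) and 2.09 (1.90 to 2.29). EGR3, NR4A3 and IER2 were also higher in ventral dermis, at ratios of 1.89, 1.66 and 1.67, each with an interval above 1. IER5 was 3.88-fold higher in dorsal dermis (1.55 to 11.6), from 25 and 6 reads.

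**Figure D3:**
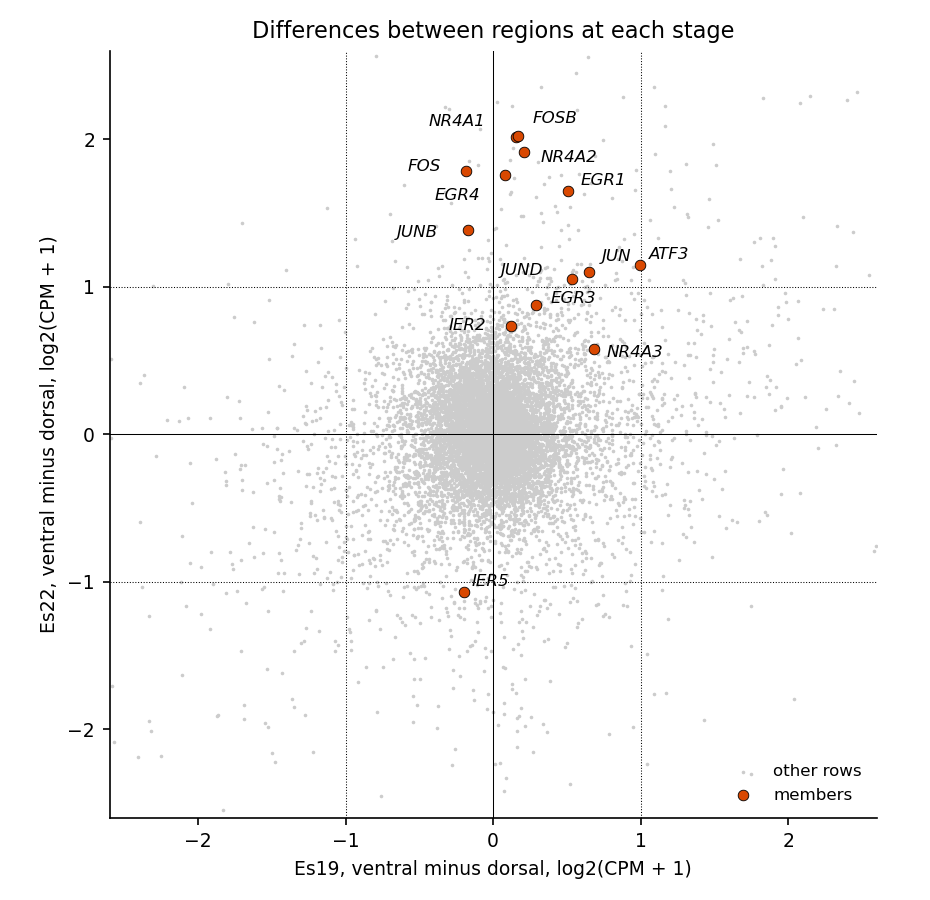
Differences in log2(CPM + 1) between ventral and dorsal dermis at Es19 (x axis) and Es22 (y axis) for all rows averaging 1 CPM or more (grey, of which 50 lie outside the frame) and the 14 immediate-early transcription factors (orange). Dotted lines mark 2-fold, and 10 factors lie above it at Es22 while 0 lie past it at Es19.

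Of the 14 genes, 0 had a 2-fold excess in ventral dermis at both stages and 0 in dorsal dermis, against 0.469% and 0.596% of all rows. Among 14 genes, counts of 0 cannot be set apart from shares this small. ATF3, with log2 differences of 0.996 (Es19) and 1.15 (Es22), lay just outside the limit, and passed it with a pseudocount of 0.1 and after scaling by totals. Without either Es19 library, when Es22 alone compares the regions, 10 genes had such an excess in ventral and 1 in dorsal dermis. JUN and JUND were the 2 genes of which both ventral libraries lay above both dorsal libraries, against 11.9% of all rows. In limma 0 of the 14 genes differed between regions at an adjusted p under 0.05 (0.234% of all rows did), and 8 did at an unadjusted p under 0.05 (7.55% of all rows). A region difference that changes with stage adds to the error of this fit. The 0 calls therefore cannot tell whether the regions differed at a single stage. The test of edgeR called 0 of the 14 (0.547% of all rows), with 9 at an unadjusted p under 0.05 (8.24% of all rows). JUN had the smallest p of the 14, with a log2 difference of 0.88 (standard error 0.17, adjusted p = 0.205 in limma), and it was higher in ventral dermis at both stages.

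The difference between regions grew from Es19 to Es22 by at least 1 in log2 for 7 genes, against 3.33% of all rows. They were FOS (1.97), NR4A1 (1.86), FOSB (1.85), NR4A2 (1.71), EGR4 (1.68), JUNB (1.56) and EGR1 (1.14). For ATF3 and NR4A3 the growth was 0.15 and -0.10, and for JUN and JUND 0.45 and 0.52. With 1 library for each region and stage this difference of differences leaves no residual degree of freedom and was not tested.

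Ratios between 2 of the genes in the same library do not depend on how libraries are scaled. Their size depends on transcript length, so only their change between libraries is read here. For FOS against JUN the ratio of reads was 0.228 (95% interval 0.202 to 0.256) in dorsal and 0.126 (0.113 to 0.141) in ventral dermis at Es19. At Es22 it was 0.733 (0.673 to 0.798) and 1.18 (1.12 to 1.25), so that the ventral library had the lowest ratio at Es19 and the highest at Es22. JUNB against JUN ran in the same order, from 0.149 in Es19 ventral to 0.993 in Es22 ventral dermis.

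Some other pairs differed less between libraries. JUND against JUN stood at 0.524, 0.484, 0.547 and 0.530 in dorsal and ventral Es19 and then dorsal and ventral Es22 dermis. FOSB against FOS stood at 0.223, 0.292, 0.222 and 0.269 in that order, and NR4A2 against NR4A1 at 0.0853, 0.0921, 0.0800 and 0.0825. The intervals of the 4 ratios of NR4A2 to NR4A1 overlapped one another. EGR4 against EGR1 was lower at Es19, at 0.0321 and 0.0242, than at Es22, at 0.103 and 0.115, with overlapping intervals between regions at each stage. NR4A3 against NR4A1 stood at 0.0253, 0.0523, 0.0382 and 0.0155 in the same order. EGR3 against EGR1 was higher in Es22 dorsal dermis, at 0.0894 (0.0758 to 0.105), than in Es22 ventral dermis, at 0.0537 (0.0475 to 0.0604).

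Of all reads on the 5 AP-1 genes with a row, FOS and FOSB took 13.5% (exact 95% interval 12.3 to 14.7) in dorsal and 9.10% (8.31 to 9.94) in ventral dermis at Es19. At Es22 they took 27.5% (26.1 to 28.9) and 37.3% (36.4 to 38.2). JUN took 55.7% of these reads in Es19 ventral and 24.8% in Es22 ventral dermis.

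**Figure D4:**
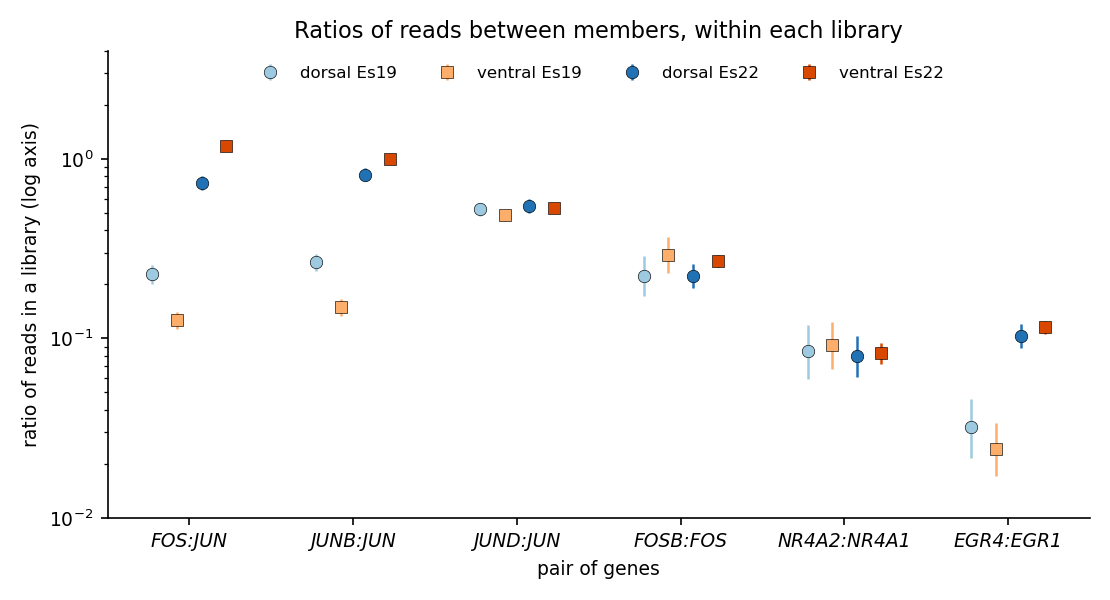
Ratio of reads between 2 immediate-early genes within each of the 4 libraries (log axis), with exact 95% counting intervals. FOS to JUN runs from 0.126 to 1.18 and JUNB to JUN from 0.149 to 0.993, while JUND to JUN stays between 0.484 and 0.547.

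The genes that act around these factors were followed in lists. Of 22 factors and kinases upstream, 9 had a row, and 0 of these passed in limma by stage or by region, a list too short for the shares of all rows given above to yield a call. CREB1, which drives FOS through cyclic AMP response elements, ranged only from 29.1 to 30.3 CPM over the 4 libraries, and its relative ATF1 from 82.5 to 85.0 CPM, both named after their values were seen. SRF, the factor of serum response elements, had 3.56 and 3.05 CPM at Es19, against 1.35 CPM dorsally and 3.92 CPM ventrally at Es22, also named after its values were seen. Of 16 dimer partners and corepressors, 9 had a row and 0 passed in limma in either direction, and of 17 target genes of AP-1 12 had a row and 0 passed, counts too small to set apart from those shares.

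Of 23 feedback inhibitors 16 had a row, of which 3 rose between stages in limma and 0 fell, beside the 2.66% of all rows that rose. BTG2, an antiproliferative gene, had 18.7 and 24.4 CPM at Es19, against 85.1 CPM dorsally and 188 CPM ventrally at Es22 (adjusted p = 0.0147 in limma). DUSP1, a phosphatase that switches off MAP kinases, went from 57.2 to 119 CPM dorsally and from 80.1 to 242 CPM ventrally (adjusted p = 0.0277 in limma). ZFP36, which speeds the decay of short-lived messages, was the third (adjusted p = 0.045 in limma) and was named after its values were seen. The medians of the 16 genes between stages were 0.19 in dorsal and 0.37 in ventral dermis.

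Of 36 other immediate-early genes 26 had a row, of which KLF2, PTGS2 and CEBPD rose (adjusted p = 0.0159, 0.0298 and 0.0251 in limma) and 0 fell. Of all rows, 2.66% rose. KLF2, a factor of endothelium under flow, had 59.6 and 71.9 CPM at Es19, against 167 and 203 CPM at Es22. PTGS2, an enzyme of prostaglandin synthesis, stood at 7.74 and 6.99 CPM and at 22.7 and 32.7 CPM. CEBPD was higher in dorsal than in ventral dermis at Es22, at 48.8 against 29.3 CPM. MYC, an early gene of the serum response named after its values were seen, ranged from 29.8 to 37.1 CPM. The median of these 26 genes was 0.47 in dorsal and 0.36 in ventral dermis between stages.

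Heat shock genes had 13 of 17 with a row, and their median between stages was -0.04 in dorsal and 0.22 in ventral dermis. HSPB1, a small heat shock protein abundant in muscle, rose from 6.73 to 18.5 CPM dorsally and from 9.16 to 38.9 CPM ventrally (adjusted p = 0.0324 in limma). DNAJB4, named after its values were seen, was the other of 2 that rose (adjusted p = 0.0422 in limma), beside 2.66% of all rows. The major chaperones HSPA8 and HSP90AB1, named after their values were seen, ranged from 985 to 1175 and from 1800 to 2442 CPM. The highest values of HSPA8 and HSP90AB1 were at Es19. Those of HSPA5 and HSPA2, also named after their values were seen, were in ventral Es22 dermis, at 1090 and 382 CPM.

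Skeletal muscle markers had their highest summed level in ventral Es22 dermis, like the immediate-early factors. Of 25 muscle markers 13 had a row, and none was at 0 in a library. Their summed level was 228 CPM dorsally and 288 CPM ventrally at Es19, then 552 and 1849 CPM at Es22, beside 416, 551, 785 and 2214 CPM for the 14 immediate-early factors. All 13 had a 2-fold excess in ventral over dorsal dermis at Es22, against 1.94% of all rows. All 13 also had one in Es22 over Es19 ventral dermis, against 5.74% of all rows. Both counts rest on the ventral Es22 library. The median log2 differences of the muscle markers were 0.14 between regions at Es19, 1.75 between regions at Es22, 1.11 between stages in dorsal and 2.44 between stages in ventral dermis. Those of the immediate-early factors were 0.19, 1.27, 1.15 and 2.51 in the same order. Between stages in dorsal dermis JUN and JUND stood at 0.054 and 0.115, within the range of the muscle markers, from -0.386 (NEB) to 2.70 (MYL1). The myogenic factor MYOG was at 1.32, 5.36, 5.19 and 15.4 CPM. The part of muscle in the result was not tested, and more cells of a type cannot be told apart from more RNA per cell in bulk samples.

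Muscle genes were also among the named genes nearest in pattern to some of the factors. Over the 4 libraries, the symbols with a mean of at least 10 CPM (6090 rows) were ranked by the Euclidean distance between log2(CPM + 1) values centred on each gene's mean. Rows that carry only a gene number, or LOC and digits alone, were left out of this ranking. For FOS the nearest of those ranked were CKM, the creatine kinase of muscle (distance 0.247), FOSB (0.354), JUNB (0.391), MYLPF (0.577) and TNNC2 (0.585). The unnamed rows gene4772 (0.417) and gene9930 (0.467), which were left out, lay nearer to FOS than MYLPF and TNNC2. CKM was at 10.3, 11.5, 43.2 and 147 CPM in the order given above, beside 27.1, 23.7, 90.6 and 315 CPM for FOS. For EGR1 the nearest was the cardiac actin ACTC1 (0.122), followed by LOC100553447L, NR4A1, HSPB1 and MYLPF. For NR4A1 they were FOSB, MYLPF, EGR1, ACTC1 and JUNB.

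The nearest to JUN was JUND (0.130), followed by GPR158, SEMA6B, GAMT and ADAMTS15. ATF3 was nearest to the transglutaminase TGM2 (0.231), then to PPP1R15A, DES.1, DUSP1 and TPM2, the last a tropomyosin of muscle. PPP1R15A, a stress gene that restores translation, stood at 41.1, 61.5, 67.7 and 152 CPM.

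Levels of other cell type markers are given in the same order of libraries. The 8 epidermal markers with a row (of 24) were KRT14, KRT15, KRT8, CDH1, EPCAM, DSP, PKP3 and COL17A1. They summed to 41.2 and 51.4 CPM at Es19, against 1013 CPM dorsally and 251 CPM ventrally at Es22. Their order between regions at Es22 was opposite to that of FOS. KRT15 and KRT14 had 416 and 306 CPM of the dorsal Es22 sum. Endothelial markers (13 of 17 with a row) summed to 348, 344, 830 and 613 CPM, and macrophage and leukocyte markers (9 of 14) to 16.5, 25.4, 60.8 and 56.4 CPM. At Es19, 10 of the 13 endothelial markers were higher in ventral dermis, with a median log2 difference of 0.49, while SOX18, TEK and ERG were lower. Red blood cell markers (9 of 17) summed to 396, 1496, 2691 and 3259 CPM, with a median log2 difference between regions of 1.24 at Es19, where that of the immediate-early factors was 0.19, and 0.33 at Es22, where it was 1.27. Dermal markers (10 of 12) had median log2 differences between regions of -0.71 at Es19 and -0.35 at Es22. At Es22 this median was -0.43 for endothelial, -0.02 for macrophage and leukocyte, and 0.10 for smooth muscle and pericyte markers. It was -0.18 for Schwann cell and neuron, -1.575 for melanocyte, and -0.38 for cartilage and bone markers. The part of these cell types in the result was not tested.

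**Figure D5:**
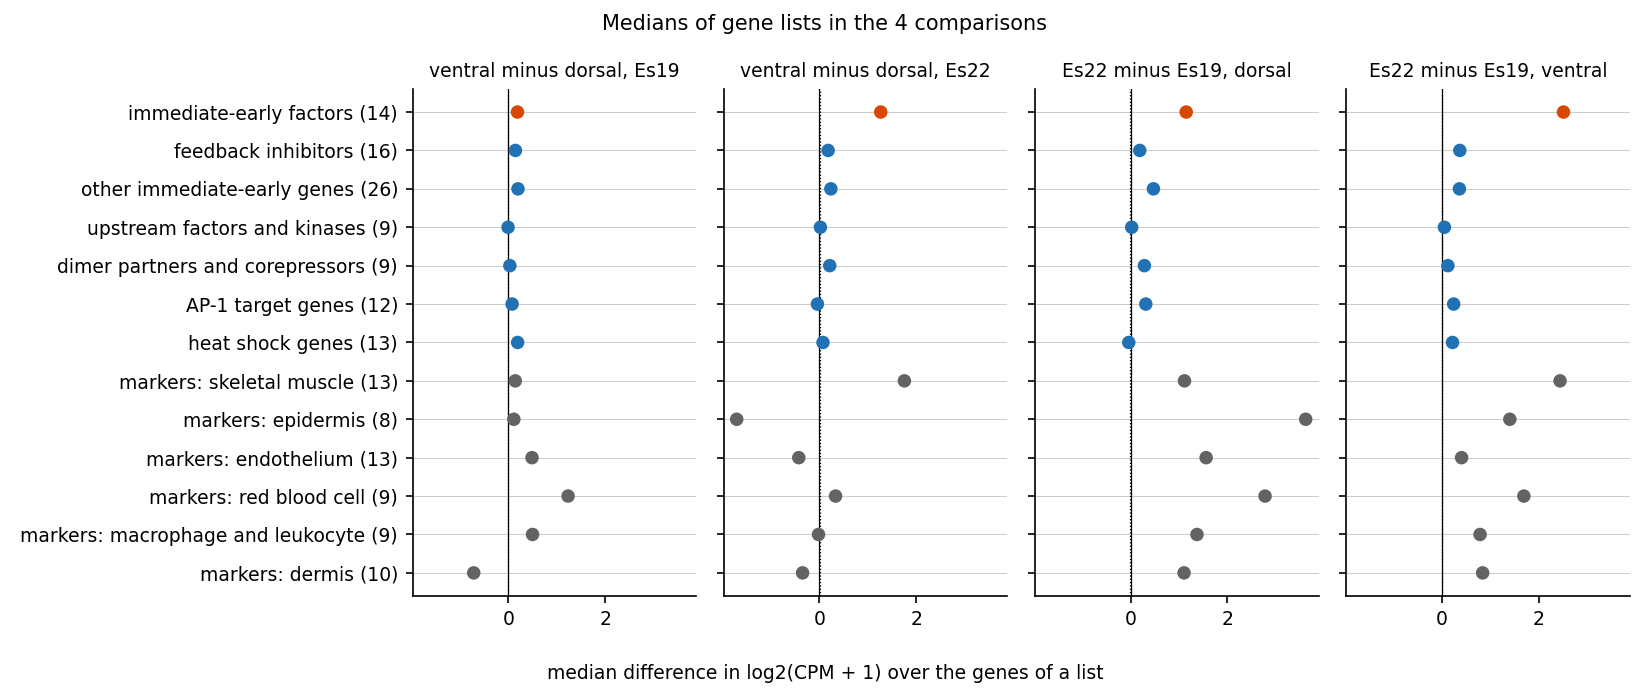
Median difference in log2(CPM + 1) of the immediate-early transcription factors (orange), of lists of genes that act around them and heat shock genes (blue) and of cell type markers (grey) in the 4 comparisons, with the number of genes with a row in brackets. The immediate-early factors and the skeletal muscle markers have medians of 1.27 and 1.75 between regions at Es22, where the epidermal markers lie at -1.71.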

How the data were processed

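TruSeq libraries of dermal RNA were read from one end. The authors deposited a table of CPM values with TMM normalization, handled here as a normalized signal because column sums differed between libraries. STAR stands in the study's methods. TopHat2 (2.1.0), Partek (3), HTSeq and edgeR stand in the submitters' processing notes. No source used here gives the annotation version. Of the values of each library, 99.8% to 99.95% lay within 0.05 of a whole multiple of 1 read. With 0 reads, up to 3 reads (0.204 to 0.310 CPM) are allowed.

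Rows averaging 1 CPM or more were tested with limma (3.58.1, intensity trend) on log2(CPM + 1), with Benjamini-Hochberg adjustment at 0.05. edgeR (4.0.16) on recovered reads was an alternative, beside other pseudocounts, filters, scalings, fold limits and each library left out. The fit was tested on simulated data. Other software was R (4.3.3), matplotlib (3.10.9), scipy (1.17.1), pandas (2.3.3), numpy (2.4.6) and Python (3.11.15). All 14 genes were named, with list genes at least 2-fold apart in both comparisons of a contrast and the 5 nearest in pattern to each of FOS, JUN, EGR1, NR4A1 and ATF3, while cell type markers are mostly given as sums. Members and lists were chosen with earlier results of these data known. No sequence is shown.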

Additional observations from a re-analysis of the deposited data

Results flagged for a closer look

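With TMM normalization, FOS and JUNB had opposite signs of the region difference at the 2 stages. FOS had 23.7 CPM ventrally and 27.1 CPM dorsally at Es19, against 315 and 90.6 CPM at Es22, so that the log2 difference grew by 1.97. For JUNB it grew by 1.56. The Es19 log2 differences, ventral minus dorsal, were only -0.187 for FOS and -0.173 for JUNB. Scaling by totals moved the median of all rows at Es19 from 0.001 to 0.192, so these signs depend on the scaling. The Es19 ratios of both genes had counting intervals that contained 1, and the change was not tested since no group had a replicate.

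IER5 had opposite signs of the stage difference in the 2 regions, with 1.01 and 2.402 CPM in dorsal and 0.746 and 0.619 CPM in ventral dermis. The ventral minus the dorsal difference was -0.87 in log2, from 6 to 25 reads per library, and was not tested.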

How the results depend on the processing

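The count of 9 genes higher at Es22 in both regions fell to 5 after scaling by totals and to 2 with a 4-fold limit. Genes higher in ventral dermis at both stages went from 0 to 1 with a pseudocount of 0.1 or after scaling by totals, and to 2 with a 1.5-fold limit. The share of all rows was not counted at these settings, so whether these counts exceed it was not tested. Scaling by totals moved the median stage difference of all rows to -0.44 in each region. Without each library, which leaves regions compared at 1 stage, there were 0 to 10 higher in ventral and 0 to 1 in dorsal dermis.

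In limma the 6 genes called by stage became 1 with a pseudocount of 5 or upper quartile scaling, 0 without the intensity trend, 0 without region as a term, and 0 to 0 without each library, where region was dropped as well. Over all rows 320 calls by stage became 486 and 144 with pseudocounts of 0.1 and 5, 89 by the upper quartile, 3134 by totals, 565 in edgeR, 0 without region as a term (1973 at an unadjusted p under 0.05), 0 without the trend (1944) and 0 to 60 without each library. By totals, 357 were higher and 2777 lower at Es22, against 272 and 48. The 24 calls by region became 40 and 8, 0 by the upper quartile (730), 0 without stage (256), 0 without the trend (801), 56 in edgeR and 0 without any library.

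With 3 libraries the other term had to be dropped too, so that stage differences enter values by region and region differences those by stage. In those fits the log2 difference by region ran from -1.04 to 2.64 for FOS, -0.62 to 2.82 for FOSB, -0.997 to 2.21 for JUNB, -0.13 to 2.29 for EGR1, -0.73 to 1.90 for EGR3, -1.19 to 3.02 for EGR4, -0.44 to 2.61 for NR4A1, -0.25 to 2.37 for NR4A2 and -0.15 to 1.01 for IER2. By stage it ran from -0.27 to 0.83 for JUN and -0.15 to 0.90 for JUND, 1.80 to 3.59 for FOS, 1.5 to 3.52 for FOSB, 1.74 to 3.12 for JUNB, 1.03 to 2.67 for EGR1, 1.90 to 2.77 for EGR3 and 2.49 to 4.25 for EGR4. JUN and JUND were -0.21 and -0.11 by totals. Of 193 alternative values of single genes by region 13 reversed, and of 193 by stage 5 reversed, 46 lost and 6 gained a call. The cause was not tested.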

Other observations

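Among rows that carry only a gene number, gene4772 lay nearest to FOS in pattern (distance 0.417, rank 4 of 6593 rows averaging 10 CPM or more). It had 3.25 CPM dorsally and 3.66 CPM ventrally at Es19, against 10.7 and 43.8 CPM at Es22. Its row identifier follows directly on that of FOS in the table. gene9930 was next, at 2.94, 3.94, 13.6 and 40.3 CPM in the same order. The table pairs neither with a name, and whether gene4772 shares reads with FOS was not tested.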
